A study of Rattus norvegicus with 12 samples.

Results

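The genes for the protein parts of the cytosolic ribosome were followed in the rat kidney fibroblast line NRK-49F across 4 groups of poly(A) RNA-seq libraries. Rows of the authors' normalized count table were taken where the gene type was protein coding, the name was Rpl or Rps followed by a digit (or Rplp0, Rplp1, Rplp2 or Rpsa) and the mean normalized count was at least 100. Rps6k kinases and copies whose names end in l and a number were left out. The rule found 73 rows of the 14275 in that table, which carry 72 distinct symbols because Rps13 has 2 rows. Of these, 32 belong to the small (40S) subunit, 38 to the large (60S) subunit and 2 (Rplp0 and Rplp2) to the acidic P-stalk of the large subunit. The remaining row is Rps19bp1, which is not a ribosomal protein: its product binds the 40S protein Rps19. Among the 40S and 60S rows, 11 have pseudogene-style names ending in "-ps" and a number, although the table lists them as protein coding. Rplp1 was not analysed here. All 73 rows passed the filter on low counts, so none was lost before testing.

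Cells had been transfected with the empty vector pcDNA3.1 or with a plasmid for Flag-tagged human HDAC1, a histone deacetylase. They were then held for 24 hours in medium with 0.5% FBS, either without addition (vehicle) or with the cytokine TGFB1 at 2 ng/ml, which drives fibroblasts towards matrix-making myofibroblasts. Each plasmid was thus combined with each medium, and each of the 4 combinations has 3 libraries. All groups share the cell line, transfection and low serum. Titles decided the groups, since the treatment field of the labels counts up from TGFB1 as a numbered name and the series text speaks of all cells as treated. The labels say neither whether replicates are separate transfections nor whether expression was transient, so p-values measure the spread between libraries.

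A ribosome is built from ribosomal RNA and a large set of proteins that are needed in matched amounts. Most of these messages begin with a terminal oligopyrimidine (TOP) motif, a run of C and T bases starting with C at the very first base. Through it, mTOR signalling and the protein LARP1 govern how strongly the messages are translated, and MYC is known to raise the transcription of ribosome genes as cells grow. TGFB1-treated fibroblasts are known for making large amounts of matrix protein.

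Because most of these messages are known to begin with this motif, start-site sequences of 6 members are shown. Rps9 and Rps13 rose with TGFB1 under both plasmids, and Rplp0 and Rps27 passed the test in neither case. Rpl18 and Rpl3 rose under both plasmids but have no such tract within reach of the annotated start. Each sequence is 30 bases from RefSeq's rat assembly GRCr8, read 5′ to 3′ on the gene's strand, with the annotated start at base 16. Capitals mark a tract of C followed by at least 4 further C or T whose first C lies within 10 bases of that start.
Rps9 (chr1:74430423-74430452, minus strand): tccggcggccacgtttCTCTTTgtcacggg
Rps13 (chr1:180009646-180009675, minus strand): gccgtttcctacctcgttCTCTCTTTgctt
Rplp0 (chr12:46718376-46718405, minus strand): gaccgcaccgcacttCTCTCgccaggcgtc
Rps27 (chr2:177964592-177964621, minus strand): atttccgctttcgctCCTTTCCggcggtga
Rpl18 (chr1:105325255-105325284, plus strand): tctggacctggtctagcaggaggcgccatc
Rpl3 (chr7:113507976-113508005, minus strand): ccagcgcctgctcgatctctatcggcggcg

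RefSeq held a start-site sequence for 51 of the 72 symbols. A tract with its first C exactly at the annotated start was present in 17 of the 51 (33.3%), against 2.64% of all 33365 promoters in the same table. Within 10 bases of the start it was present in 35 of 51 (68.6%), against 28.9% of all promoters. Of the members that rose with TGFB1 under both plasmids, 12 (Rps19bp1 among them) had a sequence and 6 of these (50.0%) had a tract within reach. Of the members called in neither TGFB1 comparison, 29 had a sequence and 19 (65.5%) had one. Both counts rest on the annotated starts, and a tract that begins more than 10 bases upstream was not counted. Rpsa and Rpl7a, which rose under both plasmids, and Rplp2, called in neither comparison, have such a tract. Whether the annotated starts are the ones used in these cells was not tested. Among other short motifs, counted on both strands over 250 bases before to 50 bases after the start, CCGGAAG (the ETS/GABP motif) was in 29.4% of members and 8.77% of all promoters. ATGGCG (a YY1 core) was in 14 of 51 members (27.5%) and 3338 of 33365 promoters, and CACGTG (the E-box bound by MYC) was in 9.80% against 6.43%. CTTTC, which overlaps pyrimidine tracts, was in 76.5% against 57.6%. These are matches of letters and were not tested against the expression values.

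Library totals were 18397093 to 36652084 counts, and 99.8789% or more of each total lay in the 14601 genes tested. CPM below are a library's counts relative to its scaled total. In vehicle, the rat Hdac1 row averaged 209.7 ± 4.13 CPM in the controls (SD, n = 3) and 421 ± 43.3 with the HDAC1 plasmid, and with TGFB1 it averaged 267 ± 21.1 and 464 ± 43.5. The row Hdac1l stood at 8.29 ± 7.33 and 1172 ± 279 CPM in vehicle, and at 9.30 ± 1.64 and 1090 ± 251 with TGFB1. In both rows each HDAC1 library lay above each control library; to which row reads of the human transgene fall is not given in the sources used here. Fibroblast markers summed to 13338 to 27203 CPM per library over the 12 of 14 that could be tested, with Dcn below 1 CPM in each group and Lum and Thy1 not tested. Of 18 cardiomyocyte markers, all 18 were tested and summed to 66.3, 360.2 and 379.9 CPM in the empty vector vehicle libraries, 222 to 426 with HDAC1 in vehicle, 399 to 508 with empty vector and TGFB1, and 139 to 153 with HDAC1 and TGFB1. Neuron and glia markers (14 of 16 tested) ran from 66.4 to 168.5 CPM, endothelial markers (5 of 8), mostly from Egfl7, from 15.7 to 23.4, tubule markers (3 of 11) from 2.33 to 7.50, and macrophage markers (3 of 8), nearly all from Cd14, from 92.8 to 219. Map2 gave 74.4 of the 87.2 CPM of neuron and glia markers in the first empty vector vehicle library. The other tested neuron and glia markers were all lower there than in the other libraries of that group (Snap25 at 0.97, against 9.91 and 11.7 CPM). What part these markers' shifts have in the values below was not tested.

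As a family, the 73 rows took up 3.08%, 3.29% and 3.12% of the counts in the 3 empty vector vehicle libraries and 3.44%, 3.36% and 3.13% in the HDAC1 vehicle libraries. With TGFB1 they took 3.20%, 3.24% and 3.92% with the empty vector, and 3.53%, 3.48% and 3.48% with HDAC1. The third empty vector TGFB1 library thus stood above the rest of its group, and the HDAC1 TGFB1 libraries lay close together and above every vehicle library. In the third empty vector TGFB1 library, 72 of the 73 rows were at the highest level of their group, and the share of mitochondrially encoded transcripts was 1.83%, against 1.81% and 1.86% in the other libraries of the group. In the third HDAC1 vehicle library, 68 of 73 rows were at the lowest level of their group. In these 2 libraries nearly all members stood on the same side of their group. In the HDAC1 TGFB1 group they did not: 43, 18 and 12 members were highest in the first, second and last library. The balance of subunits moved little: counts of 60S rows were 1.25 to 1.33 times those of 40S rows over all 12 libraries.

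**Figure D1:**
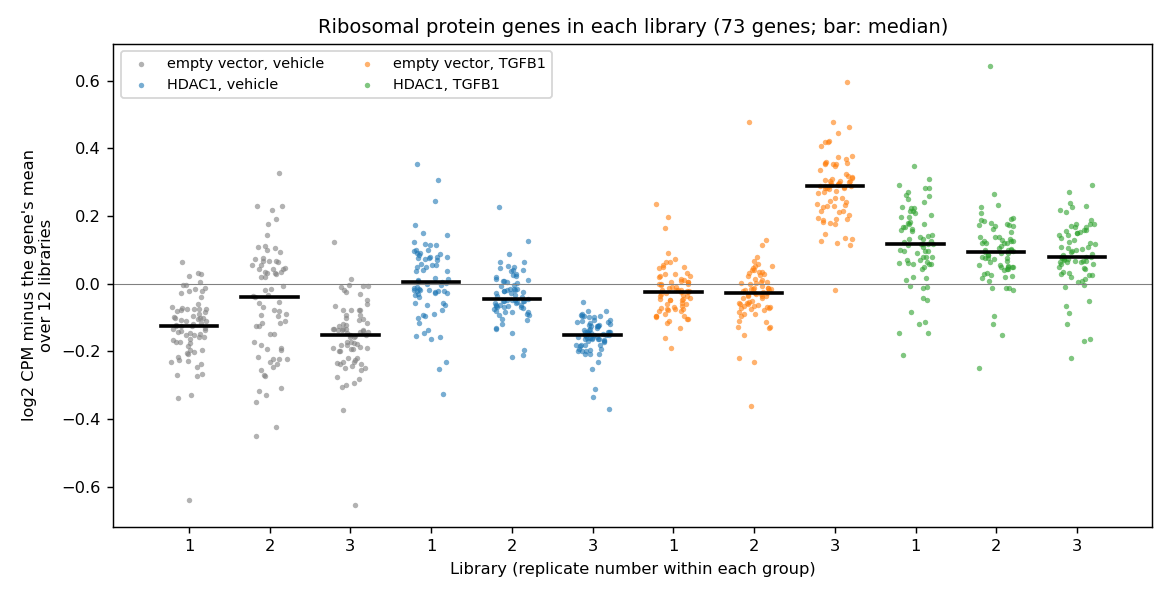
Each point is 1 of the 73 genes in 1 library, as log2 CPM minus that gene's mean over the 12 libraries; bars are medians, and colours are the 4 groups. The third empty vector TGFB1 library has a median of 0.29, apart from -0.02 and -0.03 in the other libraries of its group, and the HDAC1 TGFB1 libraries have medians of 0.12, 0.09 and 0.08.

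The second empty vector vehicle library differed in another way, by spreading its members. The interquartile range of its deviations from the genes' own means was 0.24 on the log2 scale, against 0.06 to 0.14 in the other 11 libraries. Rps28 and Rps27, both small proteins of the 40S subunit, had their highest level of the group there (199 and 254 CPM). Rps2, which lines the path where mRNA enters the ribosome, and the 60S protein Rpl31 had their lowest (789.8 and 383 CPM). It held the group's highest level for 47 members and the lowest for 18.

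For TGFB1 with the empty vector, most members had small positive values in the fit to all libraries. The members' share of counts in the first and second TGFB1 libraries (3.20% and 3.24%) lay within the vehicle libraries' range (3.08% to 3.29%). In edgeR's quasi-likelihood test, 28 of the 73 members rose (adjusted p under 0.05 over all 14601 genes) and 0 fell. Over all genes, 50.9% were called, 25.9% higher and 25% lower. The members' median log2 fold change was 0.18, or 1.13-fold, against 0.01 over all genes, and 72 of 73 had a positive sign. An unadjusted p under 0.05 was found in 34 members upwards and 0 downwards, and in 56.5% of all genes. DESeq2 and limma also called 0 members lower. In 27 members all 3 TGFB1 libraries lay above all 3 vehicle libraries, as did 28.6% of all genes. CPM are shares of each library, so a change in total RNA per cell is not measured, and fewer cells of a kind cannot be told apart from less RNA per cell.

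That count rests in large part on the third empty vector TGFB1 library. Without it, 13 members were called higher, the median log2 fold change was 0.05, and 52 were positive. That is 17.8% of members called higher against 23.6% of all genes, where the fit with all libraries had 38.4% against 25.9%. In 12 members the call held with any 1 library left out, among them Rpl6, Rpl8, Rpl8-ps7, Rpl14, Rpl18, Rps2, Rps9, both rows of Rps13, Rps27a and Rps19bp1.

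Among 60S members, Rpl14 and Rpl18 had the largest changes. Rpl14 was at 469, 494 and 487 CPM in the empty vector vehicle libraries and at 592, 607 and 702 CPM with TGFB1. The groups did not overlap, with the third TGFB1 library highest, and the log2 fold change was 0.39 ± 0.07 (SE; 1.31-fold, adjusted p = 6.36e-05, edgeR). Rpl18 was at 405, 375 and 412 CPM in vehicle and at 483, 466 and 622 CPM with TGFB1. Again no vehicle library reached a TGFB1 library, and the change was 0.40 ± 0.09 (1.32-fold, adjusted p = 0.000764, edgeR), or 0.23 without the third TGFB1 library. Rpl8, a protein near the catalytic centre, went from a mean of 419 ± 10.7 to 519.8 ± 54.1 CPM (SD, n = 3; 0.31 ± 0.07, adjusted p = 0.000702, edgeR).

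Among 40S members, Rps13, which helps bridge the subunits, was at 252, 259.9 and 252 CPM in vehicle and 304, 305 and 365 CPM with TGFB1. Its groups did not overlap, with the third TGFB1 library highest (0.35 ± 0.07, adjusted p = 0.000247, edgeR). Its second row, at 2.92 ± 0.27 CPM in vehicle and 5.90 ± 0.73 with TGFB1 (SD, n = 3), had the largest ratio of all members (2.02-fold, 1.02 ± 0.19, adjusted p = 0.000162, edgeR). It has the lowest count of any member, and how reads were split between the Rps13 rows is not given in the sources used here. Rps9, an early-joining assembly protein, was at 724, 742 and 716 CPM in vehicle and 834, 825 and 1030.1 with TGFB1, without overlap (0.30 ± 0.07, adjusted p = 0.00169, edgeR). Rps27a, made as a fusion with ubiquitin, rose by 0.37 ± 0.09 (1.29-fold, adjusted p = 0.00149).

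Members with well-known side roles varied. Rpsa, also known as the laminin receptor, was at 869, 860.2 and 825 CPM in vehicle and 925, 921 and 1192 with TGFB1. Its groups did not overlap (0.25 ± 0.08, adjusted p = 0.0148, edgeR), but without the third TGFB1 library the change was 0.09 and no longer called (adjusted p = 0.192). Rps6, the substrate that gave S6 kinase its name, was at 953, 1055 and 909 CPM in vehicle and 962, 951 and 1239 with TGFB1. The groups overlapped, the single high library carried the difference of 0.11 ± 0.09 (adjusted p = 0.295, edgeR), and the value was -0.05 without it. Rpl22, which has a paralog that can take its place, was at 174 ± 12.7 and 199 ± 29.5 CPM (SD, n = 3; 0.20 ± 0.08, adjusted p = 0.0538, edgeR). Rpl11, which can bind and block MDM2, was at 420.1 ± 23.5 and 472 ± 52.1 CPM (0.17 ± 0.08, adjusted p = 0.0895, edgeR).

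The P-stalk recruits the elongation factors. Rplp0, its base and the member with the highest CPM (counts here are not per length, so they do not rank molecules), was at 1492, 1532 and 1432 CPM in vehicle and 1577, 1508 and 1853 with TGFB1. The groups overlapped and the test was not passed (0.15 ± 0.08, adjusted p = 0.113, edgeR). Rplp2 was at 903, 1029 and 901 CPM against 936, 942 and 1225 (0.13 ± 0.09, adjusted p = 0.216, edgeR), and its value turned to -0.03 without the third TGFB1 library. Rpl13a and Rpl3 followed Rplp0 in mean CPM over all libraries.

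Rps27 was the 1 member with a negative value in this comparison. It was at 215, 254 and 199 CPM in vehicle and 203, 197 and 256 with TGFB1, fully overlapping (-0.03 ± 0.13, adjusted p = 0.890, edgeR). Its paralog Rps27l was at 91.7 ± 15.7 and 104 ± 11.2 CPM (SD, n = 3; 0.18 ± 0.10, adjusted p = 0.162, edgeR). Rps28 had the largest spread between replicates of any member (within-group SD of 0.26 on the log2 scale) and a difference of 0.01 ± 0.20. The next in spread were the second Rps13 row (0.25) and Rps27a-ps2 (0.23).

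**Figure D2:**
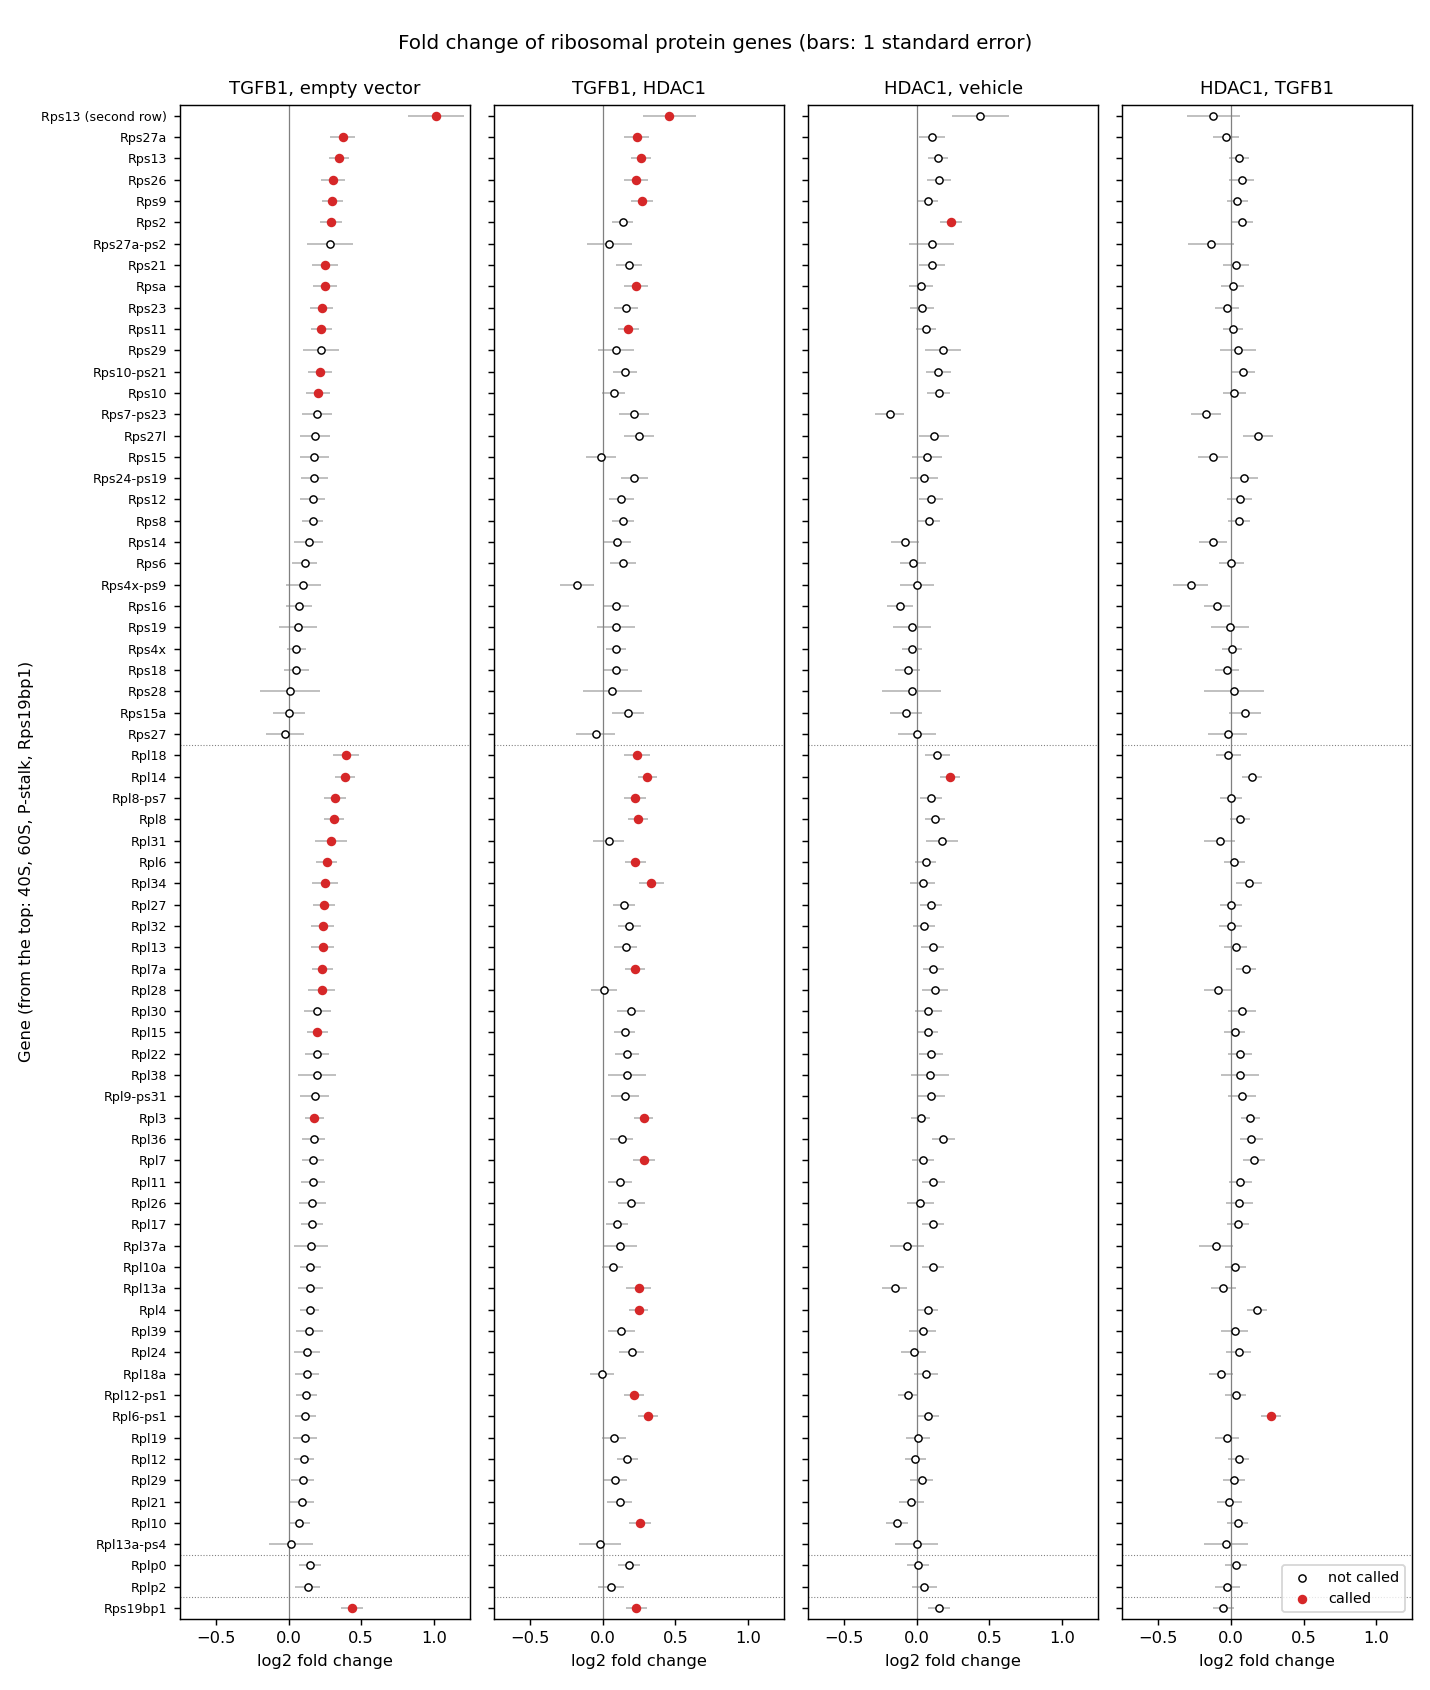
Log2 fold change of 71 of the 73 rows in the 4 comparisons, with bars of 1 standard error; rows are ordered by subunit and, within it, by the TGFB1 change with the empty vector. Filled red points passed the adjusted p of 0.05 in edgeR: among the rows drawn, 27 for TGFB1 with the empty vector, 22 for TGFB1 with HDAC1, 2 for HDAC1 in vehicle and 1 for HDAC1 with TGFB1, all to the right of 0.

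In cells with the HDAC1 plasmid, TGFB1 again moved calls in the upward direction. In edgeR's test 23 members rose and 0 fell, where 49.1% of all genes were called, 24.9% higher and 24.2% lower. The median log2 fold change was 0.16 (1.12-fold), against -0.02 over all genes, and 67 of 73 were positive. An unadjusted p under 0.05 was found in 31 members upwards and 0 downwards, and in 54.8% of all genes. DESeq2 and limma called 0 members lower. In 40 members all HDAC1 TGFB1 libraries lay above all HDAC1 vehicle libraries, as did 30% of all genes. The TGFB1 comparisons use separate libraries but come from the same fit, with a shared scaling and estimate of spread. They shared 17 called members, which is 17 of 28 and 17 of 23, with 39 called in neither. The share of all genes called higher in both was not counted, so this overlap is not read as a trait of the members. Counts fell to between 11 and 15 when any 1 library other than the first HDAC1 vehicle library was left out, and were 30 without that one. The share of members called higher was then below that of all genes in 4 of these 5 fits (15.1% to 16.4%, against 19.4% to 22.3%) and 20.5% against 19.3% without the second HDAC1 vehicle library. With all libraries it was 31.5% against 24.9%. Without normalization beyond the library totals, 8 members (10.96%, against 18.3% of all genes) were called higher here and 17 with the empty vector (23.3% against 21.9%). Calls on 7 members held with any 1 library left out, among them Rpl3, Rpl4, Rpl6-ps1, Rpl14, Rps9 and Rps13.

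By subunit, 14 of 38 60S members (36.8%) and 8 of 32 40S members rose with HDAC1 present. Of all genes 24.9% rose there, so the 40S count was near the share of all genes. With the empty vector 14 60S members (36.8%) and 13 40S members (40.6%) rose, against 25.9% of all genes. No difference between the subunits was tested. Neither P-stalk gene was called, with Rplp0 at 1613, 1501 and 1361 CPM in vehicle and 1681, 1715 and 1668 with TGFB1 (0.18 ± 0.08, adjusted p = 0.0595, edgeR). Those groups did not overlap. Of the 11 pseudogene-style rows, 3 rose with HDAC1 (27.3%) and 2 with the empty vector (18.2%), near or below the shares of all genes.

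Rpl14 had the smallest adjusted p. It was at 593, 569 and 534 CPM in HDAC1 vehicle libraries and 717, 693 and 691 with TGFB1, far apart (0.31 ± 0.07, 1.24-fold, adjusted p = 0.000797, edgeR). Rpl3, which reaches to the peptidyl transferase centre, was at 1099, 1139 and 1065 CPM in vehicle and 1369.9, 1332 and 1317 with TGFB1. All TGFB1 libraries were higher (0.28 ± 0.07, 1.22-fold, adjusted p = 0.00118, edgeR). Rps13 went from 281 ± 14.5 to 337 ± 2.98 CPM (SD, n = 3; 0.26 ± 0.07, adjusted p = 0.00359, edgeR). Rpl34 had the largest ratio after the second Rps13 row. Its levels were 261, 272 and 234 CPM in vehicle and 354, 306 and 307 with TGFB1, without overlap (0.34 ± 0.09, 1.26-fold, adjusted p = 0.00372, edgeR).

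Rpl4, which lines the tunnel where the new protein leaves, was at 979, 883 and 853 CPM in vehicle and 1085, 1064 and 1074 with TGFB1 (0.25 ± 0.07, adjusted p = 0.00470, edgeR). Its groups did not overlap. Rpl10, which joins the 60S subunit late in its maturation, was at 499, 486 and 452 CPM and 586, 569.9 and 562 (0.26 ± 0.07, adjusted p = 0.00598, edgeR). All 3 TGFB1 libraries exceeded the vehicle ones, and its value with the empty vector was 0.07 ± 0.07 (adjusted p = 0.410, edgeR). Rpsa went from 869.7 ± 54.4 to 1020.2 ± 6.85 CPM (SD, n = 3; 0.23 ± 0.08, adjusted p = 0.0247, edgeR). Of the 6 members with a negative value none was called; the low row Rps4x-ps9 (-0.18 ± 0.12) was among them.

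**Figure D3:**
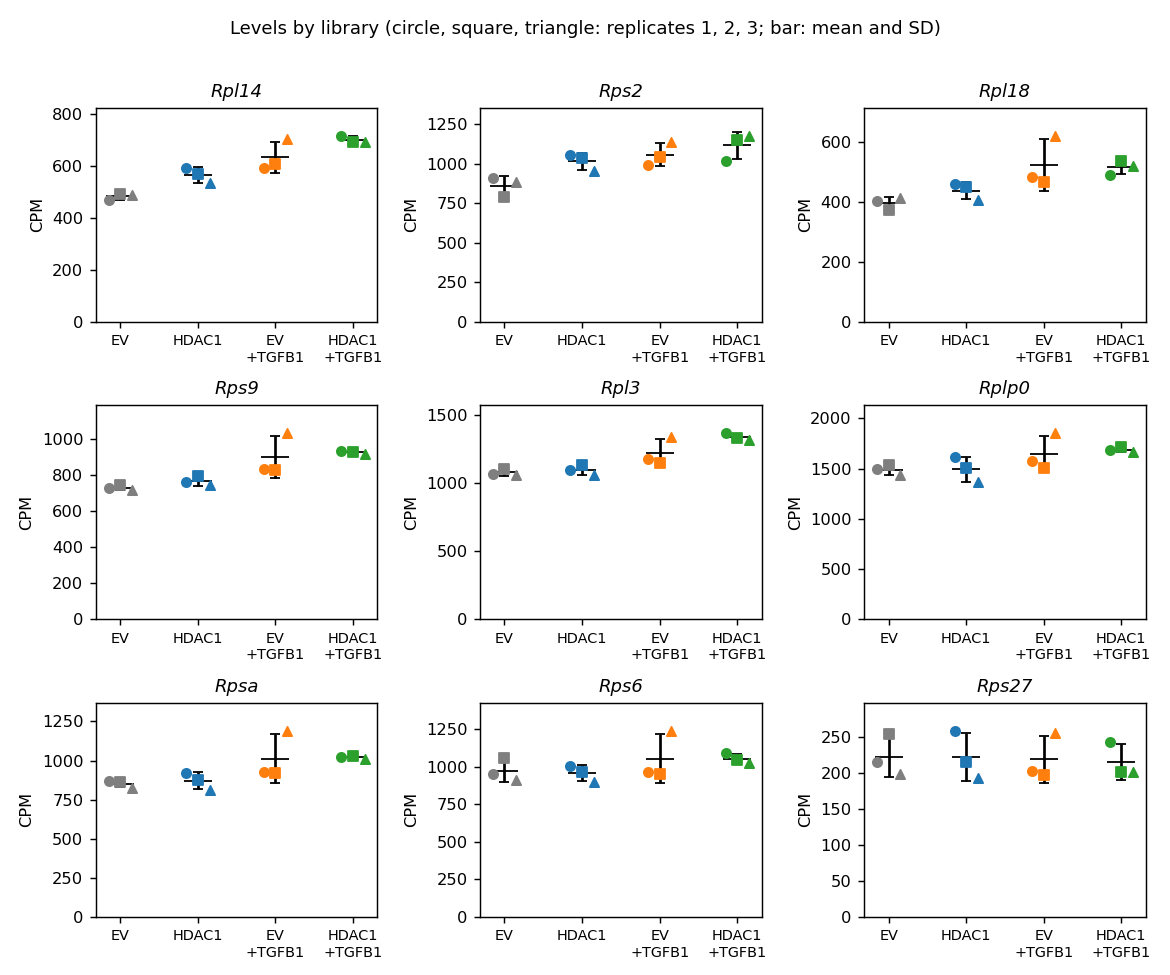
CPM of 9 members in every library, by group (EV, empty vector; HDAC1, HDAC1 plasmid; with or without TGFB1), with the group mean and SD as bars and the replicate number as the symbol; axes start at 0. In most panels the triangle of the empty vector TGFB1 group, the third library, is the highest point of its group (702 CPM for Rpl14, 1853 CPM for Rplp0), and Rps27 shows no separation of groups.

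The HDAC1 plasmid itself moved few of these genes past the test. In vehicle, 2 of 73 members rose in edgeR's test and 0 fell, while 14% of all genes were called, 6.64% higher and 7.32% lower. DESeq2 and limma gave the same 2 and 0, and 4 members (against 27.1% of all genes) had an unadjusted p under 0.05, all upwards. The median log2 fold change was 0.07, against -0.01 over all genes, with 54 members positive. In 9 members the HDAC1 libraries were all higher than the highest control and in 1 all lower than the lowest, against 15.2% and 17.3% of all genes. This comparison and the TGFB1 comparison with the empty vector share the empty vector vehicle libraries. The share of mitochondrially encoded transcripts moved with the plasmid: it was 1.77% to 1.87% in the 6 empty vector libraries and 2.09% to 2.44% in the 6 HDAC1 libraries, and its part in the HDAC1 comparisons was not tested.

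Both called members were named above. Rpl14 went from 469, 494 and 487 CPM with the empty vector to 593, 569 and 534 with HDAC1, without overlap (0.23 ± 0.07, 1.17-fold, adjusted p = 0.0294, edgeR). Rps2 went from 908, 789.8 and 887 CPM to 1057, 1035 and 952, also without overlap (0.24 ± 0.08, 1.18-fold, adjusted p = 0.0398, edgeR). Each call was lost on leaving out 1 of several libraries: neither was called without the first or second HDAC1 vehicle library or the first empty vector library, and Rps2 also not without the second empty vector library. With the replicate number as a block, adjusted p was 0.0540 for Rpl14 and 0.0627 for Rps2 (edgeR), so neither was called. The largest negative values were those of Rps7-ps23 (-0.19 ± 0.10) and Rpl13a (-0.15 ± 0.09), neither called.

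With TGFB1 present, HDAC1 gave 1 called member and 0 lower, where 6.53% of all genes were called, 2.17% higher and 4.36% lower. The member was Rpl6-ps1, a pseudogene-style row, at 38.7, 42.1 and 40.9 CPM with the empty vector and 46.8, 49.7 and 50.7 with HDAC1. No library overlapped (0.28 ± 0.07, 1.21-fold, adjusted p = 0.0259, edgeR). Reads of Rpl6 itself could be split to this row, and the counting rule for shared reads is not given in the sources used here. Rpl6 had no HDAC1 call in either treatment. DESeq2 called 2 members and limma 1 higher, with 0 lower in both, and 3 members had an unadjusted p under 0.05 upwards and 2 downwards (23% of all genes in either direction). Among the latter was Rps4x-ps9 (-0.28 ± 0.12, adjusted p = 0.166, edgeR). In 2 members the highest HDAC1 library was below the lowest control, against 15.6% of all genes. The median over members was 0.03, against -0.00 over all genes.

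This comparison also rests on the third empty vector TGFB1 library. Without it, 4 members (5.48%, against 1.11% of all genes) were called higher, the median was 0.13, and 69 were positive. With all libraries the shares called higher were 1.37% of members and 2.17% of all genes. Leaving out the first empty vector TGFB1 library instead gave 0 calls, where 0.78% of all genes were called higher, and a median of -0.02.

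Whether the TGFB1 change differed between plasmids was tested by the interaction. In edgeR's test 0 of 73 members were called, where 0.479% of all genes were, and 0 members had an unadjusted p under 0.05, against 12.9% of all genes. DESeq2 and limma also called 0. The smallest adjusted p among members was 0.387, and the median was -0.04. The 95% interval of the difference had a median half-width of 0.25 on the log2 scale, and in 66 of 73 members it lay within 0.5 either way. For Rpl14 it ran from -0.28 to 0.12, for Rpl3 from -0.09 to 0.30, and for Rps2 from -0.38 to 0.06. The widest interval was that of Rps28, from -0.60 to 0.71. The second Rps13 row ran from -1.12 to 0.00 and had the most negative value (-0.56 ± 0.27). The interval lay within 0.2 either way in 0 of 73 members, so differences of the size of the TGFB1 changes themselves were not resolved. Without the third empty vector TGFB1 library the members' median was 0.06.

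The genes that build and use ribosomes give the setting for these values. Their lists were chosen with earlier results of these data known, so they are given as counts and medians only. The list of ribosome assembly and rRNA processing factors showed the broadest change with TGFB1. With the empty vector 41 of its 43 rows rose and 0 fell, and with HDAC1 39 rose and 0 fell. Of all genes, 25.9% and 24.9% rose. DESeq2 and limma gave the same counts, and 0 rows had an unadjusted p under 0.05 downwards in edgeR. Its median log2 fold changes were 0.65 and 0.60, against 0.18 and 0.16 for the ribosomal proteins. Nop56, a core protein of the particles that methylate rRNA, went from 77.5 ± 3.44 to 153.6 ± 12.3 CPM (SD, n = 3; 0.99 ± 0.08, adjusted p = 8.18e-10, edgeR). Leaving out any 1 library moved this list's count only between 41 and 42 with the empty vector and between 38 and 39 with HDAC1. For the RNA polymerase I machinery, which makes the rRNA, 12 of 15 rows rose with the empty vector and 11 with HDAC1, with medians of 0.40 and 0.37. Polr1g rose by 1.22 ± 0.08 and 1.23 ± 0.08.

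Initiation and elongation factors lay between. Of 20 initiation factors outside eIF3, 15 rose with the empty vector and 16 with HDAC1 (medians 0.33 and 0.35), led by the RNA helicase Eif4a1 (0.70 ± 0.06 and 0.63 ± 0.06). Of 12 eIF3 subunits, 10 and 9 rose, and Eif3f fell with the empty vector (-0.25). Of 10 elongation and termination factors, 6 and 7 rose (medians 0.46 and 0.40). Eef2k, the kinase that inhibits elongation factor eEF2, fell from 88.1 ± 1.89 to 42.5 ± 3.00 CPM with the empty vector (SD, n = 3; -1.05 ± 0.07, adjusted p = 5.62e-11, edgeR) and by 0.98 ± 0.07 with HDAC1. Among 18 other TOP messages 10 rose and 1 fell with the empty vector and 12 rose with HDAC1 (medians 0.21 and 0.29), with Npm1 at 0.72 ± 0.08 and 0.78 ± 0.08. Rack1, which sits on the 40S head, rose with the empty vector (0.18 ± 0.07, adjusted p = 0.0396, edgeR), a call lost on leaving out any 1 library of the comparison but the second TGFB1 library. Fau, the source of the 40S protein eS30, was at 357 ± 19.1 and 388 ± 63.2 CPM.

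Among 23 regulators of ribosomal protein synthesis, 5 rose and 8 fell with TGFB1 and the empty vector, and 8 rose and 8 fell with HDAC1. Of all genes, 25.9% rose and 25% fell with the empty vector, and 24.9% and 24.2% with HDAC1. Myc was at 45.7, 40.4 and 47.6 CPM in the empty vector vehicle libraries and 110.2, 109 and 118 with TGFB1. The groups were far apart, and Myc rose by 1.33 ± 0.08 (adjusted p = 2.04e-11, edgeR), and under HDAC1 by 1.10 ± 0.08 (adjusted p = 2.90e-10, edgeR). The MYC antagonists Mnt (-0.49 and -0.32) and Mxi1 (-0.44 and -0.25) fell under both plasmids, as did Tsc1 and Tsc2, whose products restrain mTOR. Tsc1 and Tsc2 were added after their values were seen. Further called regulators are not named here, so the named genes do not stand for the list. Eif4ebp1, which holds back cap-dependent initiation, rose by 0.78 ± 0.09 with the empty vector and by 0.53 ± 0.09 with HDAC1. These are RNA levels; no protein, phosphorylation or translation was measured.

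The ribosome of mitochondria is a useful neighbour, since its proteins are encoded by other nuclear genes. Of 70 mitochondrial ribosomal protein genes, 31 rose and 3 fell with TGFB1 and the empty vector (median 0.19), and 19 rose and 5 fell with HDAC1 (median 0.10). With the empty vector 44.3% of them rose, against 38.4% of the cytosolic members, and 56 had a positive sign. Their values ran from Mrps31 (0.95 ± 0.10) to Mrps6 (-0.55). No cytosolic member was called lower with TGFB1, nor was any row of the assembly, RNA polymerase I or non-eIF3 initiation factor lists. Without the third empty vector TGFB1 library 18 mitochondrial ribosomal protein genes rose and 8 fell. With HDAC1, 3 of the 70 rose in vehicle, where 6.64% of all genes did, and 1 with TGFB1, where 2.17% did.

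With HDAC1 in vehicle, 15 of 43 rows of the assembly list (34.9%) rose and 1 (Sbds, -0.25) fell, with a median of 0.18. Of all genes 6.64% rose and 7.32% fell, and of the ribosomal protein rows 2.74% rose. With TGFB1 8 rows of the assembly list rose (18.6%, against 2.17% of all genes), with a median of 0.14. How far these HDAC1 counts rest on single libraries was not tested. Nop56 was at 77.5 ± 3.44 CPM with the empty vector and 100.9 ± 8.47 with HDAC1 in vehicle (SD, n = 3; 0.38 ± 0.08, adjusted p = 0.00161, edgeR). Myc rose by 0.31 ± 0.08 in vehicle (adjusted p = 0.0117, edgeR). No test compared these lists with the ribosomal proteins.

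**Figure D4:**
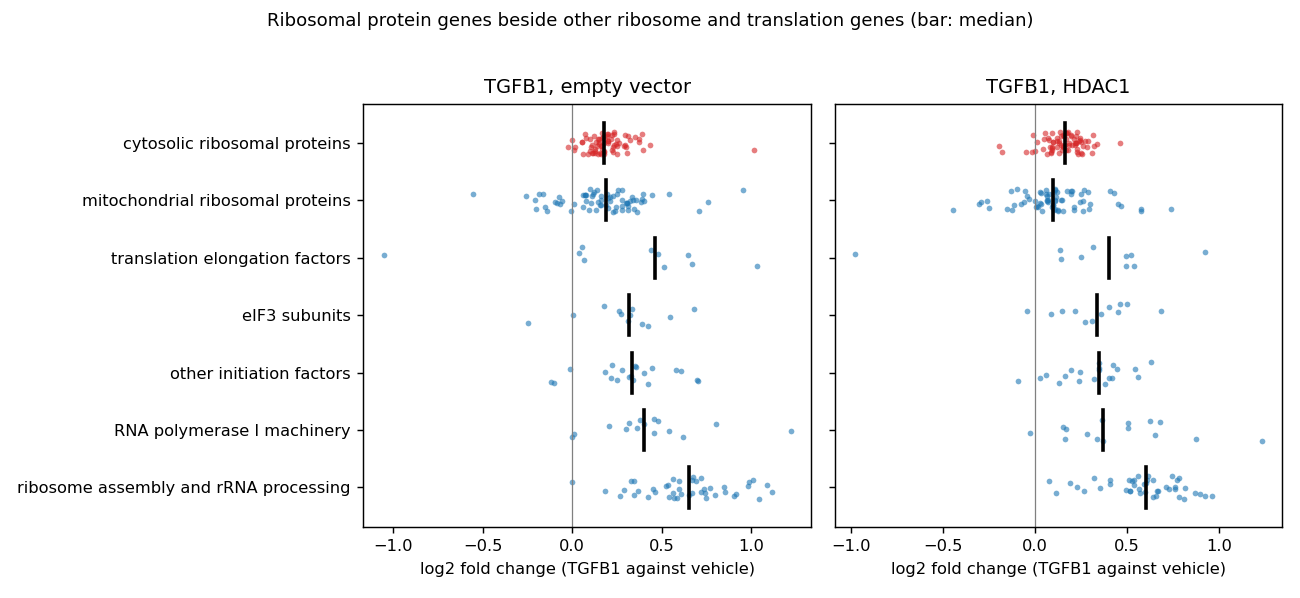
Log2 fold change with TGFB1 for the cytosolic ribosomal protein rows (red) and 6 other lists (blue), 1 point per row, with the list's median as a bar; left, empty vector; right, HDAC1. The ribosomal protein points form a narrow band with medians of 0.18 and 0.16, and the assembly and rRNA processing list has medians of 0.65 and 0.60.

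The rule's cut at a mean normalized count of 100 fell among pseudogene-style rows. Just inside were the second Rps13 row at 107 and Rpl13a-ps4 at 131. Just below were Rpl4-ps1 at 97.9, Rpl26-ps2 at 88.7 and Rpl22-ps2 at 85.0. Rps19bp1, the row that is no ribosomal protein, was at 56.3, 54.1 and 55.6 CPM in empty vector vehicle libraries and 69.5, 71.4 and 83.7 with TGFB1, without overlap. It had the smallest adjusted p of all members there (0.44 ± 0.07, adjusted p = 4.39e-05, edgeR), and 0.23 ± 0.07 with HDAC1 (adjusted p = 0.0128, edgeR). Leaving it out gave 27 of 72 and 22 of 72 members called higher in the TGFB1 comparisons, with medians of 0.18 and 0.16.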

How the data were processed

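Members and gene lists were chosen with earlier results of these data known. The authors deposited raw counts per gene (43360 genes) and a normalized table, whose deposited signal values are, as checked, the counts divided by 1 constant per library, for the 14275 genes whose counts add up to 100 or more. Tools named per the submitters' processing notes are Trim Galore 0.6.7, Subread 2.0.1 with featureCounts, and DESeq2 1.44; the build named there is a mouse one, although gene identifiers are from rat Ensembl. Which aligner and rat build were used, and how multi-mapping reads were treated, is not given in the sources used here, so rows with near-identical copies, such as the pseudogene-style ones, are uncertain.

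Counts were analysed with edgeR 4.0.16 (R 4.3.3): filterByExpr kept 14601 genes, libraries were TMM-scaled, and a robust quasi-likelihood model with 1 mean per group was fitted to all 12 libraries (8 residual degrees of freedom). Two-sided p-values were Benjamini-Hochberg adjusted over all genes tested, and genes were called under 0.05. CPM are counts over the TMM-scaled library total, with mean and SD over 3 libraries; SE is the fold change's size divided by the square root of F, and intervals are 95%. The steps were tested on simulated counts drawn separately for each gene. No simulated library had many genes shifted together, so that case was not covered. Members were named by rule: up to 6 called in each direction per comparison by adjusted p, the largest changes, the highest, lowest and most variable, Rplp0, Rplp2, Rpsa, Rps6 and Rpl22, and up to 3 called genes per list; from these the text gives a part, and Rps9, Rps27a, Rpl4, Rpl10, Rpl11, Rpl31, Rps27l, Fau, Tsc1, Tsc2, Mrps6 and Sbds were added after their values were seen. Motifs were counted in RefSeq promoters of GRCr8, matched by symbol. Alternatives were other scalings, DESeq2 1.42.0, limma 3.58.1 on log2 of the normalized values plus 1, other filters, fits to only 2 groups, a block for the replicate number, and fits that each lack 1 library; for the lists, the latter were chosen after seeing the data. Results for 2 members are not reported here by name; counts and medians over the 73 members include them.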

Additional observations from a re-analysis of the deposited data

How the results depend on the processing

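The count of members called higher, by comparison, moved beyond 1.5 times of the reported value as follows. With library totals in place of TMM it was 17 for TGFB1 with the empty vector and 8 for TGFB1 with HDAC1; that scaling put the median of all genes at -0.11 in the latter, so the members' excess over it, 0.18, was as before. A fit to only the 2 groups gave 37 for TGFB1 with HDAC1. The DESeq2 test gave 2 for HDAC1 with TGFB1. Leaving out 1 library at a time gave 0 to 2 for HDAC1 in vehicle, 0 to 4 for HDAC1 with TGFB1, 13 to 33 for TGFB1 with the empty vector, 11 to 30 for TGFB1 with HDAC1 and 0 throughout for the interaction. The medians then ran from 0.04 to 0.12, from -0.023 to 0.13, from 0.053 to 0.23, from 0.12 to 0.21 and from -0.10 to 0.06, in the same order. Signs turned for Rplp2 (-0.031, against up to 0.20 without another library) and Rps6 (-0.047) with TGFB1 and the empty vector without the third TGFB1 library, and for Rplp2 (-0.034) with TGFB1 and HDAC1 under library totals; none of these was called, and the cause was not tested.

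Over all genes, HDAC1 in vehicle called 969 higher and 1069 lower, or 622 and 522 without the first HDAC1 vehicle library and 680 and 559 without the first empty vector one. HDAC1 with TGFB1 called 317 higher and 637 lower, or 464 and 568 with the ribosomal protein genes left out of TMM, 594 and 747 by DESeq2, and as few as 67 and 170 with 1 library left out. TGFB1 with HDAC1 called 3638 and 3532, or 2668 and 4499 with library totals. The interaction called 20 and 50, or 19 and 84 with library totals, 77 and 193 by DESeq2, 89 and 390 without a filter, and from 0 and 3 to 62 and 195 with 1 library left out. Adding the family rows that the rule leaves out raised the mean share of counts to 3.55%, 3.72%, 3.89% and 3.93% in empty vector vehicle, HDAC1 vehicle, empty vector TGFB1 and HDAC1 TGFB1.

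Replicate numbers recur in every group, and the labels do not say what they stand for. Deviations of same-number pairs of libraries correlated at -0.09 to 0.12, with 2 of 18 pairs over 0.1. Those of other pairs correlated at -0.12 to 0.09. With 3 libraries per group these values cannot settle whether a number marks a shared batch. With a replicate block, the counts were 0, 1, 24, 21 and 0 for HDAC1 in vehicle, HDAC1 with TGFB1, TGFB1 with the empty vector, TGFB1 with HDAC1 and the interaction; Rpl14 and Rps2 then had adjusted p of 0.0540 and 0.0627 for HDAC1 in vehicle (edgeR).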

Other observations

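Rows left out by name carry many counts of the same family. Of the 39 copy-named rows, 16 reached a mean normalized count of 100, and for several of them (Rps3l1, Rpl5l1, Rpl23al6, Rps17l2, Rps25l2 and Rpl37l2, chosen after their values were seen) no plain-named row of the parent gene was among the rows of the family. Rps3l1 had a mean normalized count of 23067 and averaged 891 CPM in empty vector vehicle libraries and 1065 with TGFB1. Rpl5l1 averaged 669 and 783 CPM, and Rps20l1 489 and 628. Of the 16 rows, 9 rose and 0 fell with TGFB1 and the empty vector (56.25% higher, against 25.9% of all genes). With TGFB1 and HDAC1, 6 rose and 0 fell (37.5% higher, against 24.9%), and the medians were 0.22 and 0.18 (edgeR). How far these counts rest on the third empty vector TGFB1 library was not tested. DESeq2 and limma also called 0 lower, and 0 had an unadjusted p under 0.05 downwards with TGFB1. HDAC1 gave 0 calls among them in edgeR; in vehicle 2 had an unadjusted p under 0.05 upwards and 1 downwards, and DESeq2 and limma each called 1 higher, while with TGFB1 1 had an unadjusted p under 0.05 downwards and neither tool called any.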
